A study of Homo sapiens with 15 samples.

Results

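The interferon-stimulated genes described here are 42 genes of the 58721 in each deposited table. They were taken as a fixed list of symbols, chosen with earlier results of these data known, and matched to gene identifiers through GENCODE release 29. By role they comprise 8 RNA sensors and 2′-5′-oligoadenylate synthetase family members, 4 transcription factors and 30 effectors. RNA sequencing was available for 5 derivatives of MelJuSo, a cell line from a human melanoma, with 3 libraries (A, B and C) each. All 5 lines carry dCas12a, a Cas12a that binds DNA at a guide but does not cut it, fused to the 5xALFA tag, together with a nanobody that binds the tag.

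The p65 guide line has 5xALFA-dCas12a-VP64, nanobody-p65 and a cassette of 3 guides against CD4. The VP64 guide line has 5xALFA-dCas12a-VP64, nanobody-VP64 and the same cassette. The p65 line without guides and the VP64 line without guides have the same dCas12a-VP64 and nanobody pairs and no CD4 guides. The line without an activation domain has 5xALFA-dCas12a, the nanobody alone and no guides. VP64 is an acidic viral activation domain and p65 is the activation domain of RELA, a subunit of NF-kB. Cells were grown to confluency and total RNA was sequenced by a service provider. Each condition is 1 derived line, so an effect of the guides or of the activation domain and a difference between lines cannot be told apart. The labels do not say that libraries A, B and C were separate cultures, so the spread behind each p-value is that of these libraries alone and may be technical.

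Interferon-stimulated genes are switched on when secreted interferons bind their receptors. The receptor-bound JAK1 and TYK2 kinases then activate STAT proteins, among them STAT2, which acts with IRF9 in a complex that binds the interferon-stimulated response element (ISRE) in promoters. Many of these genes also respond to IRF1, IRF3 or IRF7 directly, downstream of sensors of foreign RNA and DNA. Their products sense viral RNA, block its translation, degrade it, or attach the ubiquitin-like protein ISG15 to other proteins.

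Expected counts summed to 15643705 to 23072512 per library, and 19634 to 20597 genes had a count. CD4, the targeted gene, had 38746, 35894 and 39141 counts in the p65 guide libraries and 29905, 37603 and 28750 in the VP64 guide libraries. It had 197, 214 and 245 counts with p65 and no guides, 169, 164 and 176 with VP64 and no guides, and 76, 88 and 28 without an activation domain. Differences were tested with the quasi-likelihood test of edgeR over all genes that passed a filter on low counts, with Benjamini-Hochberg adjusted p-values and a threshold of 0.05, and SE is the standard error of a log2 fold change. RELA, the source of the p65 domain, had a log2 fold change with guides of -0.09 (adjusted p = 0.0709, SE 0.038) with p65 and -0.14 (adjusted p = 0.00481, SE 0.039) with VP64. Of the melanocytic markers, SOX10 had 122 to 237 TPM over the 15 libraries and S100B 34.9 to 195 TPM. The pigment gene PMEL had 7.08 to 15.1 TPM, and the pigment gene MLANA had 24 counts over all libraries. Of 18 immune cell markers, 8 passed the low-count filter, and CD3D, CD3G, CD2, MS4A1, LILRA4 and CLEC4C had no count in any library. The summed TPM of the immune markers was 59.1 to 72.7 in the p65 guide line, 54.1 to 60.2 in the VP64 guide line, 84.2 to 89.4 with p65 and no guides, 89.7 to 91.6 with VP64 and no guides, and 46.5 to 52.8 without an activation domain. IL7R, with 27.6 to 78.7 TPM over all libraries, made up most of these sums.

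For 34 of the 42 members a promoter was in the RefSeq table (build GRCh38.p14). The ISRE core, written as GAAA, any 2 bases and GAAA, was searched on both strands from 250 bases before the start to 50 bases from it onward. It was present in 20 of these 34 promoters (58.8%) and in 3.65% of 27305 promoters. Overlapping matches of 1 core were counted separately. The gamma-activated site core TTCNNNGAA was found in 9 member promoters (26.5%) and in 7.88% of all. The NF-kB core, written as GGG, any 5 bases and CC, was found in 22 member promoters (64.7%) and in 58.0% of all. Below, the 170 bases before the RefSeq start are printed on the gene's strand. Matches to the ISRE core on either strand are in capitals where they lie wholly within these bases. The sequences show how the element sits in members that rose with guides in both pairs of lines. The windows are chr2:162318685-162318854 (minus strand) for IFIH1, chr10:89392453-89392622 (plus) for IFIT1, chr10:89327827-89327996 (plus) for IFIT3, chr1:1013327-1013496 (plus) for ISG15, chr15:88638846-88639015 (plus) for ISG20, chr1:27672193-27672362 (minus) for IFI6 and chr1:78649619-78649788 (plus) for IFI44.
IFIH1: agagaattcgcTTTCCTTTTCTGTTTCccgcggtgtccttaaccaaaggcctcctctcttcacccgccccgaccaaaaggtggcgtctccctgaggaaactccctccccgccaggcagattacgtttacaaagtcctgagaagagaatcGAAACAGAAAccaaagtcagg
IFIT1: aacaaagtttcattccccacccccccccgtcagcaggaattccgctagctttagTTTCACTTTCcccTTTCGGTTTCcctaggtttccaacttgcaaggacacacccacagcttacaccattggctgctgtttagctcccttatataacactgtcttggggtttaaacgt
IFIT3: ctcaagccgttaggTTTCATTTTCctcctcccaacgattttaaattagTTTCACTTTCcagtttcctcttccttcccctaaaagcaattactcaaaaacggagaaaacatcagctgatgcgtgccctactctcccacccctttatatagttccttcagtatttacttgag
ISG15: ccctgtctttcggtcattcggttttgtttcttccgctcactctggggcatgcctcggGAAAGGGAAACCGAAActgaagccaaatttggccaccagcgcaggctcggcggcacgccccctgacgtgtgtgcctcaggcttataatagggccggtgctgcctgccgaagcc
ISG20: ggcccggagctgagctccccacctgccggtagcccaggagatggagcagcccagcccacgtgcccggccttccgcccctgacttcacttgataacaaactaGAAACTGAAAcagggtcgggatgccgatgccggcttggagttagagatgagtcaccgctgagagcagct
IFI6: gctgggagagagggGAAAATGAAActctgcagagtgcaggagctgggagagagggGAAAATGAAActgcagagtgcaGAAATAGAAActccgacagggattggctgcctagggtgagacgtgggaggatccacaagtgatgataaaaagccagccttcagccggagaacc
IFI44: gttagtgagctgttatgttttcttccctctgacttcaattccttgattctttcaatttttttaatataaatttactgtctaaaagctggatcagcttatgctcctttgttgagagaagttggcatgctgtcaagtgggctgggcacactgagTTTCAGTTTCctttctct

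The element was also present in members that did not rise with guides. IFIT5 (chr10:89414398-89414567, plus strand) and OAS3 (chr12:112938304-112938473, plus strand) are printed in the same way for comparison.
IFIT5: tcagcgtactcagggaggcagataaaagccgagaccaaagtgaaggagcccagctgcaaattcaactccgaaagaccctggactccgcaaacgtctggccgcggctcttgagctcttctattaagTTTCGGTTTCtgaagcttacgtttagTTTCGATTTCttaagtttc
OAS3: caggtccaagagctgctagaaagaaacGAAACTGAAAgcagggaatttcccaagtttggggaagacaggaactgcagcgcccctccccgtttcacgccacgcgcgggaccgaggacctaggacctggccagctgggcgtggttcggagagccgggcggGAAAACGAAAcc

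Among members tested, 12 of 20 with a match rose with guides in the p65 pair and 13 of 20 in the VP64 pair. Without a match, 8 of 12 rose in the p65 pair and 8 of 12 in the VP64 pair. Of all tested genes, 18.7% rose in the p65 pair and 19.3% in the VP64 pair. All tested genes were not split by a match. The median log2 fold change with p65 was 0.65 with a match and 0.66 without, and with VP64 it was 0.62 with a match and 0.69 without. OASL, IFIT2, OAS2, TRIM22, IRF7, USP18, UBA7 and MX2 had no promoter window and are not in this split. Promoters with another spacing of the GAAA copies, as in OAS1 and IFI35, count as without a match. The split therefore does not show whether the element matters for the rise. A match in this window is a description of the letters and not of binding.

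The members spanned a wide range of levels, given here in TPM, a share of all transcripts that is per length and lets genes be set beside each other. IFI6, a mitochondrial protein that counters apoptosis, and ISG15 had the highest mean TPM over the 5 lines, followed by SP100, TRIM25 and EIF2AK2. IFI6 had 135 ± 12.9 TPM in the p65 guide line, 128 ± 10.0 in the VP64 guide line, 69.3 ± 3.34 with p65 and no guides, 67.3 ± 2.13 with VP64 and no guides, and 51.5 ± 4.09 without an activation domain (SD, n = 3 each). ISG15 had 86 ± 9.25, 113 ± 12.1, 53.5 ± 6.55, 52.7 ± 1.67 and 21.5 ± 2.59 TPM in the same order of lines (SD, n = 3 each). At the other end, MX2, the RNA-modifying enzyme RSAD2 (viperin) and the nucleotide kinase CMPK2 did not pass the filter on low counts. MX2 had 2 to 10 counts per library, RSAD2 0 to 6 and CMPK2 0 to 7, so these 3 members were not tested in the fit. Without the filter none of them passed the threshold in any of the 7 comparisons (adjusted p 0.451 to 1).

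Summed over all 42 members, the level was 795, 774 and 709 TPM in the p65 guide libraries, 757, 818 and 790.2 in the VP64 guide libraries, 517, 498 and 505 with p65 and no guides, 511, 516 and 509 with VP64 and no guides, and 399.7, 408 and 446 without an activation domain. All guide libraries lay above all libraries without guides, and those without an activation domain were lowest. By mean CPM, 24 members were lowest in the line without an activation domain. The highest mean lay in the VP64 guide line for 22 members, in the p65 guide line for 15 and for 5 where no activation domain was present. The same counts were not taken over all tested genes. They include the untested MX2, RSAD2 and CMPK2, and members whose neighbouring lines all overlapped, such as BST2, MX1, SP100 and XAF1.

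**Figure D1:**
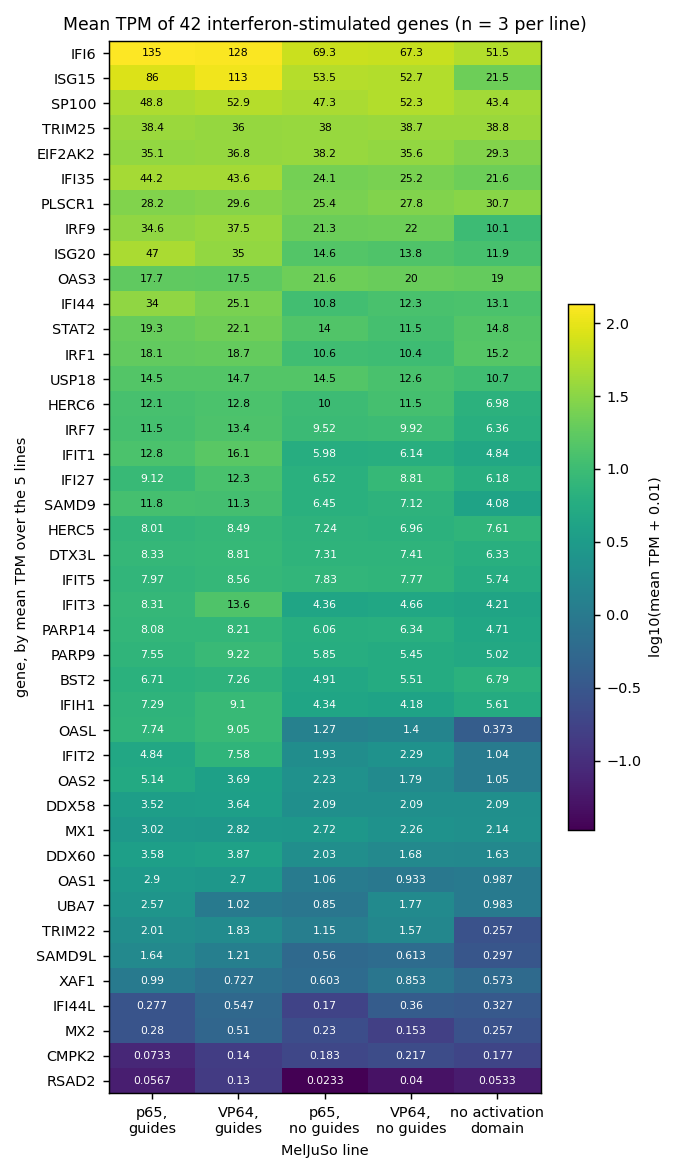
Mean TPM of the 42 members in each of the 5 lines (n = 3 libraries each), written in each cell and coloured by log10(TPM + 0.01), with genes from the highest to the lowest mean. IFI6 and ISG15 were highest, and the mean of RSAD2, MX2, CMPK2, IFI44L and XAF1 stayed below 1 TPM in every line.

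The first question was what the CD4 guides did to these genes in each nanobody pair. With p65, 25 of 39 tested members rose with guides and 1 fell, against 18.7% of all 14961 tested genes higher and 20.2% lower. With VP64, 27 members rose and 1 fell, against 19.3% higher and 21.3% lower over all tested genes. The members' median log2 fold change was 0.71 with p65 and 0.65 with VP64, while the median over all tested genes was -0.01 with p65 and 0.00 with VP64. Guide and no-guide lines thus also differed in 38.9% of all genes with p65 and in 40.6% with VP64. The list was chosen with earlier results of these data known, which limits what its excess over all genes can show. In these bulk libraries a higher level in each cell and a larger share of cells with a high level cannot be told apart.

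The 2 guide comparisons share no library. Of the members that rose, 24 rose in both, IRF7, MX1 and USP18 passed the threshold with VP64 only, and UBA7 with p65 only. The difference of the guide effects did not pass the threshold for any of those 4 members. The fitted change was positive in both pairs for 35 members and negative in both for 3. Over the 39 members the fitted changes of both pairs had a Pearson r of 0.861, given as a description across genes that are not independent replicates. These counts and the r were not computed over all tested genes, so agreement between the pairs is not shown to be particular to the members. Over all tested genes, 0.956% passed the threshold in the difference of guide effects. With p65 the 10 largest rises were OASL, SAMD9L, ISG20, OAS1, IFI44, IFIT2, UBA7, IFIT1, TRIM22 and OAS2, with log2 fold changes of 2.42 to 1.11. With VP64 they were OASL, IFIT2, SAMD9L, IFIT3, IFIT1, OAS2, ISG20, IFIH1, OAS1 and ISG15, with 2.92 to 1.09. OAS3 was the member that fell with p65 and TRIM25 the one that fell with VP64.

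**Figure D2:**
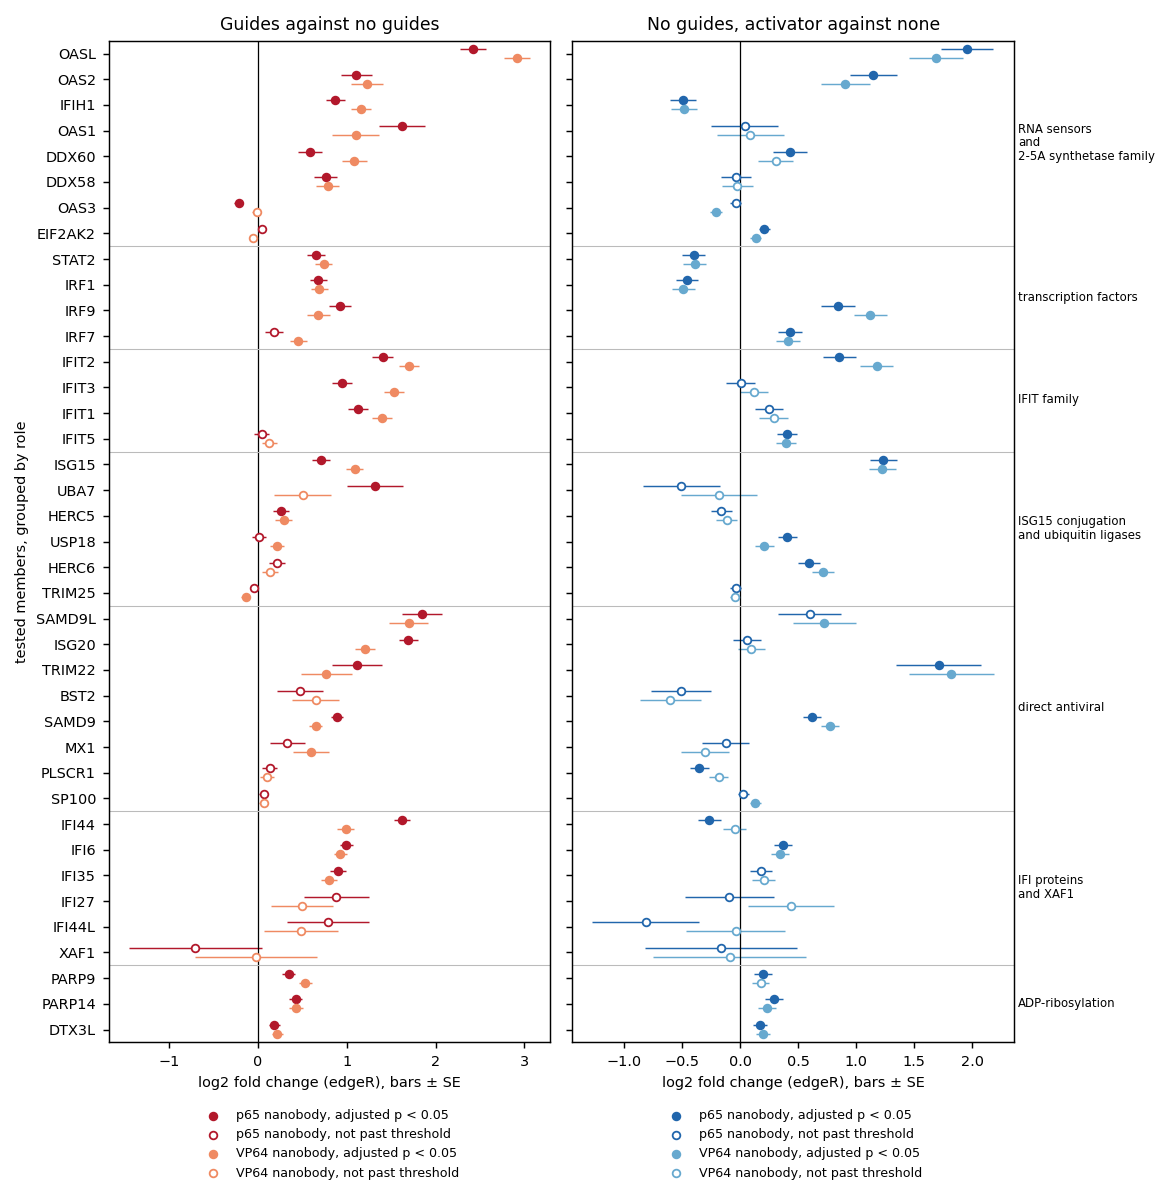
Log2 fold changes with their SE from the edgeR fit for the 39 tested members, grouped by role. The left panel gives guides against no guides and the right panel each activation domain without guides against none; filled points have an adjusted p below 0.05. OASL lay furthest right in the left panel for both nanobodies, and IFIH1, STAT2 and IRF1 lay right of 0 in the left panel and left of 0 in the right panel. Both panels use the libraries with an activation domain and no guides, with opposite sign.

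Among the RNA sensors and the 2′-5′-oligoadenylate synthetase family, 6 of 8 members rose with guides in the p65 pair and 6 of 8 in the VP64 pair. Values per library are in CPM, counts per 1e6 of the scaled library total. OASL, a synthetase-like protein without synthetase activity that enhances RNA sensing, had 15, 15.1 and 11.5 CPM in the p65 guide libraries, 16, 18.1 and 14.6 in the VP64 guide libraries, 2.90, 2.39 and 2.46 with p65 and no guides, 2.25, 2.10 and 2.09 with VP64 and no guides, and 0.763, 0.724 and 0.522 without an activation domain. All libraries of the guide lines lay above all others, and those without an activation domain were lowest. OASL rose with guides by a log2 fold change of 2.42 (adjusted p = 2.41e-11, SE 0.14) with p65 and 2.92 (adjusted p = 2.98e-12, SE 0.15) with VP64. IFIH1 (MDA5), a sensor of long double-stranded RNA, had 17.7, 15.9 and 12.8 CPM in the p65 guide libraries, 18.7, 18.9 and 19.1 in the VP64 guide libraries, 8.45, 9.26 and 7.61 with p65 and no guides, 9.11, 8.50 and 7.77 with VP64 and no guides, and 12.2, 11.2 and 12.2 without an activation domain. Guide libraries were highest, but here both lines without guides were below the line without an activation domain. IFIH1 rose with guides by a log2 fold change of 0.87 (adjusted p = 1.41e-06, SE 0.11) with p65 and 1.16 (adjusted p = 2.18e-08, SE 0.11) with VP64. DDX60, a helicase linked to RNA sensing, had 12.8, 13.6 and 11.2 CPM in the p65 guide libraries, 13.6, 18.9 and 16 in the VP64 guide libraries, 9.72, 6.61 and 8.58 with p65 and no guides, 8.29, 6.60 and 8.04 with VP64 and no guides, and 5.67, 6.28 and 6.57 without an activation domain. The guide libraries of each pair did not overlap with their counterparts without guides, and DDX60 rose by a log2 fold change of 0.58 (adjusted p = 0.00178, SE 0.14) with p65 and 1.09 (adjusted p = 1.55e-06, SE 0.14) with VP64.

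DDX58 (RIG-I), which senses viral RNA ends, rose with guides by a log2 fold change of 0.76 (SE 0.13) with p65 and 0.78 (SE 0.13) with VP64. The synthetases OAS1 and OAS2, whose product activates RNase L, rose as well. OAS1 rose by a log2 fold change of 1.62 (SE 0.26) with p65 and 1.10 (SE 0.27) with VP64. OAS2 rose by a log2 fold change of 1.11 (SE 0.17) with p65 and 1.23 (SE 0.18) with VP64. OAS1 was a low-level gene, with at most 3.58 CPM in any library. The related OAS3 went the other way, with 62.3, 66.3 and 66.8 CPM in the p65 guide libraries and 76, 78.4 and 73.1 CPM with p65 and no guides. It fell with p65, with a log2 fold change of -0.22 (adjusted p = 0.00126, SE 0.050), and with VP64 its change was -0.01 (adjusted p = 0.852, SE 0.051). EIF2AK2 (PKR), the kinase that halts translation on double-stranded RNA, had log2 fold changes of 0.04 (adjusted p = 0.495, SE 0.047) with p65 and -0.06 (adjusted p = 0.352, SE 0.048) with VP64 and did not pass the threshold in either.

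Of the 4 transcription factors, 3 rose with guides in the p65 pair and all 4 in the VP64 pair. STAT2, a partner of IRF9, had 29.6, 33.8 and 25.9 CPM in the p65 guide libraries, 28, 32.5 and 34.5 in the VP64 guide libraries, 19.4, 18.1 and 19.1 with p65 and no guides, 20.5, 17.8 and 18.7 with VP64 and no guides, and 24.2, 22.6 and 27.8 without an activation domain. The guide libraries of each pair lay above their counterparts, and the p65 guide libraries overlapped with those without an activation domain. STAT2 rose with guides by a log2 fold change of 0.65 (adjusted p = 1.32e-05, SE 0.097) with p65 and 0.74 (adjusted p = 2.52e-06, SE 0.098) with VP64. IRF9, the DNA-binding part of that complex, had 22.4, 23.9 and 19.7 CPM in the p65 guide libraries, 20.8, 22.5 and 24.1 in the VP64 guide libraries, 11.4, 9.36 and 13.7 with p65 and no guides, 15.5, 12.9 and 13.7 with VP64 and no guides, and 4.96, 7.87 and 6.39 without an activation domain. Its libraries formed 3 tiers without overlap, the guide lines, the lines with an activation domain and no guides, and the line without an activation domain. IRF9 rose with guides by a log2 fold change of 0.92 (adjusted p = 5.18e-06, SE 0.13) with p65 and 0.68 (adjusted p = 0.000156, SE 0.13) with VP64. IRF1, a factor induced by interferon gamma and by NF-kB, had 22.2, 21.8 and 20.7 CPM in the p65 guide libraries, 21.3, 22.3 and 20.3 in the VP64 guide libraries, 15.5, 13.9 and 11.2 with p65 and no guides, 11.9, 13.9 and 13.8 with VP64 and no guides, and 17.6, 18.3 and 19.7 without an activation domain. Like IFIH1 and STAT2, it was lower in both lines without guides than without an activation domain. IRF1 rose with guides by a log2 fold change of 0.68 (adjusted p = 7.25e-06, SE 0.096) with p65 and 0.69 (adjusted p = 6.42e-06, SE 0.098) with VP64. IRF7, the main driver of interferon alpha genes, had a log2 fold change of 0.18 (adjusted p = 0.161, SE 0.099) with p65 and rose by a log2 fold change of 0.46 (adjusted p = 0.000774, SE 0.099) with VP64.

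In the IFIT family of RNA-binding translation inhibitors, 3 of 4 members rose with guides in each pair. IFIT2 had 13.3, 12 and 11.4 CPM in the p65 guide libraries, 17.1, 19.5 and 19.5 in the VP64 guide libraries, 4.73, 4.63 and 4.49 with p65 and no guides, 5.53, 5.58 and 6.22 with VP64 and no guides, and 2.67, 2.94 and 2.09 without an activation domain. Every line was apart from the others, with the VP64 guide line highest. IFIT2 rose with guides by a log2 fold change of 1.41 (adjusted p = 4.53e-09, SE 0.12) with p65 and 1.70 (adjusted p = 1.24e-10, SE 0.11) with VP64. IFIT3, a partner that stabilises IFIT1, had 14, 17.2 and 12.5 CPM in the p65 guide libraries, 22.1, 25 and 23.6 in the VP64 guide libraries, 7.69, 8.27 and 6.73 with p65 and no guides, 8.09, 8.91 and 7.45 with VP64 and no guides, and 7.52, 7.63 and 7.44 without an activation domain. The 3 lines without guides overlapped, and the VP64 guide libraries lay above the p65 guide libraries. IFIT3 rose by a log2 fold change of 0.94 (adjusted p = 9.64e-07, SE 0.11) with p65 and 1.53 (adjusted p = 4.5e-10, SE 0.11) with VP64. IFIT1, which binds viral RNA that lacks cap methylation, had 16.7, 17.4 and 15 CPM in the p65 guide libraries, 21.2, 19.2 and 20.8 in the VP64 guide libraries, 8.45, 6.81 and 7.26 with p65 and no guides, 8.34, 6.71 and 8.09 with VP64 and no guides, and 6.97, 5.31 and 6.70 without an activation domain. IFIT1 rose by a log2 fold change of 1.12 (adjusted p = 6.53e-08, SE 0.11) with p65 and 1.40 (adjusted p = 2.09e-09, SE 0.11) with VP64. IFIT5 had log2 fold changes of 0.04 (adjusted p = 0.728, SE 0.085) with p65 and 0.13 (adjusted p = 0.251, SE 0.086) with VP64, and its libraries with and without guides overlapped in both pairs.

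Among the genes of ISG15 conjugation and related ubiquitin ligases, 3 of 6 rose in each pair. ISG15 itself had 24.4, 20.7 and 20.2 CPM in the p65 guide libraries, 28.9, 30.5 and 24.8 in the VP64 guide libraries, 14.9, 12.4 and 12.6 with p65 and no guides, 12.8, 13.4 and 13.4 with VP64 and no guides, and 4.96, 5.55 and 6.35 without an activation domain. Its guide libraries were highest and those without an activation domain lowest, with no overlap between these tiers. ISG15 rose with guides by a log2 fold change of 0.71 (adjusted p = 5.8e-06, SE 0.099) with p65 and 1.09 (adjusted p = 1.4e-08, SE 0.099) with VP64. UBA7, the enzyme that activates ISG15, had 3.30, 2.31 and 2.52 CPM in the p65 guide libraries, 1.87, 2.22 and 1.64 in the VP64 guide libraries, 0.865, 0.936 and 1.41 with p65 and no guides, 0.614, 1.84 and 1.61 with VP64 and no guides, and 1.58, 1.88 and 1.17 without an activation domain. UBA7 rose by a log2 fold change of 1.32 (adjusted p = 0.00192, SE 0.32) with p65, while with VP64 its libraries with and without guides overlapped and its change was 0.50 (adjusted p = 0.231, SE 0.32). HERC5, the main ligase for ISG15 in human cells, had 20.4, 19.5 and 17.9 CPM in the p65 guide libraries, 20.2, 18.8 and 22.1 in the VP64 guide libraries, 18.6, 15.2 and 14.6 with p65 and no guides, 16, 17.1 and 16.8 with VP64 and no guides, and 17.6, 17.1 and 19.4 without an activation domain. HERC5 rose by a log2 fold change of 0.26 (adjusted p = 0.0301, SE 0.091) with p65 and 0.29 (adjusted p = 0.0153, SE 0.092) with VP64. The p65 call for HERC5 was lost without p65 guide library A or B or without p65 no-guide library B or C (adjusted p 0.0806 to 0.132), and the VP64 call without VP64 guide library C (adjusted p 0.0691).

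The remaining members of this group had small fitted changes. HERC6, the ISG15 ligase of mice, had log2 fold changes of 0.21 (adjusted p = 0.062, SE 0.089) with p65 and 0.14 (adjusted p = 0.227, SE 0.089) with VP64, and with p65 it passed under 2 settings that kept the libraries compared (adjusted p 0.0346 and 0.0434). USP18, which removes ISG15 from proteins and dampens the receptor, had a log2 fold change of 0.01 (adjusted p = 0.925, SE 0.077) with p65 and rose by a log2 fold change of 0.21 (adjusted p = 0.0381, SE 0.080) with VP64. That USP18 call was lost without VP64 guide library B or VP64 no-guide library B or C (adjusted p 0.0972 to 0.236). It was also lost with no filter on low counts, with only the compared libraries and under DESeq2 (adjusted p 0.0671 to 0.0724), and reads of its near-identical copy USP41 may be split with it. TRIM25, a ubiquitin ligase for RIG-I, had a log2 fold change of -0.04 (adjusted p = 0.526, SE 0.046) with p65 and fell to 138, 153 and 144 CPM in the VP64 guide libraries, against 155, 166 and 159.9 CPM with VP64 and no guides. Its log2 fold change was -0.14 (adjusted p = 0.0176, SE 0.046), and the call was lost without VP64 guide library A or C or VP64 no-guide library B or C (adjusted p 0.0687 to 0.137).

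Of 11 antiviral effectors in the next group, 8 were tested, of which 4 rose in the p65 pair and 5 in the VP64 pair. ISG20, an exonuclease that degrades single-stranded RNA, had 24.5, 25.8 and 22.3 CPM in the p65 guide libraries, 19.5, 17.6 and 16.1 in the VP64 guide libraries, 6.77, 7.07 and 8.49 with p65 and no guides, 7.37, 8.80 and 6.81 with VP64 and no guides, and 7.35, 7.29 and 6.92 without an activation domain. The 3 lines without guides overlapped, and the p65 guide libraries lay above the VP64 guide libraries. ISG20 rose with guides by a log2 fold change of 1.69 (adjusted p = 5.01e-11, SE 0.11) with p65 and 1.21 (adjusted p = 1.52e-08, SE 0.11) with VP64. SAMD9, a restriction factor for poxviruses, had 60.8, 64.8 and 62.2 CPM in the p65 guide libraries, 53.5, 62.8 and 60.4 in the VP64 guide libraries, 38, 33.9 and 29.7 with p65 and no guides, 38.7, 38 and 36.1 with VP64 and no guides, and 22.2, 21.9 and 22.1 without an activation domain. SAMD9 rose by a log2 fold change of 0.89 (adjusted p = 1.75e-09, SE 0.070) with p65 and 0.65 (adjusted p = 1.87e-07, SE 0.071) with VP64. Its neighbour and paralog SAMD9L had 5.50, 6.10 and 5.57 CPM in the p65 guide libraries, 4.77, 5.73 and 6.38 in the VP64 guide libraries, 1.68, 1.92 and 1.19 with p65 and no guides, 1.13, 2.30 and 1.77 with VP64 and no guides, and 0.872, 1.21 and 1.04 without an activation domain. The guide libraries stood well above the overlapping libraries of the other 3 lines, and SAMD9L rose by a log2 fold change of 1.85 (adjusted p = 8.1e-07, SE 0.22) with p65 and 1.70 (adjusted p = 2.31e-06, SE 0.22) with VP64.

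TRIM22, a ubiquitin ligase active against several viruses, had 2.48, 2.67 and 3.60 CPM in the p65 guide libraries, 2.45, 2.58 and 2.40 in the VP64 guide libraries, 1.58, 1.14 and 1.32 with p65 and no guides, 1.18, 1.89 and 1.29 with VP64 and no guides, and 0.708, 0.386 and 0.174 without an activation domain. Its libraries fell into 3 tiers without overlap, in the same order as those of IRF9, all at low counts. TRIM22 rose with guides by a log2 fold change of 1.11 (adjusted p = 0.00308, SE 0.28) with p65 and 0.77 (adjusted p = 0.0376, SE 0.29) with VP64. The VP64 call was lost without VP64 guide library A, B or C or VP64 no-guide library A or C (adjusted p 0.0575 to 0.127), and with the replicate letter as a block (adjusted p 0.0514). MX1, a GTPase that traps viral nucleocapsids, had a log2 fold change of 0.33 (adjusted p = 0.207, SE 0.20) with p65 and rose by a log2 fold change of 0.59 (adjusted p = 0.0235, SE 0.20) with VP64, a call that was lost without VP64 guide library A or C or VP64 no-guide library A (adjusted p 0.069 to 0.0973). BST2 (tetherin), which holds budding virus at the cell surface, had a log2 fold change of 0.47 (adjusted p = 0.167, SE 0.26) with p65 and 0.65 (adjusted p = 0.0559, SE 0.27) with VP64. BST2 passed the threshold with VP64 under 4 other settings that kept the libraries compared (adjusted p 0.0146 to 0.0469), and without VP64 guide library B or VP64 no-guide library C (adjusted p 0.0269 and 0.0474). With p65 it passed without p65 guide library C (adjusted p 0.0306). PLSCR1, a phospholipid scramblase, had a log2 fold change of 0.13 (adjusted p = 0.222, SE 0.083) with p65 and 0.10 (adjusted p = 0.356, SE 0.083) with VP64. SP100, a scaffold of nuclear bodies, had a log2 fold change of 0.06 (adjusted p = 0.346, SE 0.050) with p65 and 0.06 (adjusted p = 0.325, SE 0.050) with VP64.

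Of the IFI proteins and XAF1, 3 of 6 rose in each pair. IFI44, a cytoplasmic protein with antiviral activity, had 29, 29.6 and 28.4 CPM in the p65 guide libraries, 20.1, 22 and 23.2 in the VP64 guide libraries, 9.01, 9.31 and 9.90 with p65 and no guides, 9.88, 12.2 and 10.8 with VP64 and no guides, and 10.4, 10.4 and 13 without an activation domain. The p65 guide libraries were highest, the VP64 guide libraries next and the other 3 lines well below. IFI44 rose by a log2 fold change of 1.62 (adjusted p = 1.31e-11, SE 0.093) with p65 and 0.99 (adjusted p = 3.23e-08, SE 0.095) with VP64. IFI6 had 56.5, 58.6 and 49 CPM in the p65 guide libraries, 48.8, 54.8 and 49.3 in the VP64 guide libraries, 28.3, 26.2 and 27.6 with p65 and no guides, 27.4, 27.5 and 25.7 with VP64 and no guides, and 19.2, 21.8 and 22.3 without an activation domain. IFI6 rose by a log2 fold change of 1.0 (adjusted p = 3.43e-10, SE 0.071) with p65 and 0.93 (adjusted p = 1.51e-09, SE 0.072) with VP64. IFI35, a leucine zipper protein, had 34.8, 29.1 and 27.9 CPM in the p65 guide libraries, 27.1, 30.3 and 29.6 in the VP64 guide libraries, 16.3, 14.7 and 18 with p65 and no guides, 17.1, 16 and 16.9 with VP64 and no guides, and 14.2, 13.4 and 15.8 without an activation domain. IFI35 rose by a log2 fold change of 0.90 (adjusted p = 6.11e-08, SE 0.090) with p65 and 0.80 (adjusted p = 3.53e-07, SE 0.091) with VP64, and guide and no-guide libraries did not overlap for IFI6 or IFI35 in either pair.

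IFI27, IFI44L and XAF1 had few counts and did not pass the threshold in either pair. IFI27, a mitochondrial protein, had 8 to 40 counts per library and a log2 fold change of 0.88 (adjusted p = 0.0617, SE 0.36) with p65 and 0.50 (adjusted p = 0.277, SE 0.35) with VP64. With p65 it passed the threshold under 3 settings that kept the libraries compared, and without p65 guide library B (adjusted p 0.0389 to 0.0476). IFI44L, the neighbour of IFI44, had a log2 fold change of 0.79 (adjusted p = 0.196, SE 0.47) with p65 and 0.48 (adjusted p = 0.388, SE 0.42) with VP64. XAF1, a binding partner of the apoptosis inhibitor XIAP, had a log2 fold change of -0.71 (adjusted p = 0.496, SE 0.75) with p65 and -0.02 (adjusted p = 0.986, SE 0.69) with VP64, at no more than 0.778 CPM in any library.

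All 3 genes of the ADP-ribosylation group rose in both pairs, by log2 fold changes of 0.18 to 0.53. PARP14, a mono-ADP-ribosyltransferase, had 43.9, 41 and 41.2 CPM in the p65 guide libraries, 36.2, 43.5 and 41.4 in the VP64 guide libraries, 31.6, 31.8 and 30.7 with p65 and no guides, 27.4, 29.4 and 33.3 with VP64 and no guides, and 23.3, 26.2 and 27.4 without an activation domain. It rose with guides by a log2 fold change of 0.43 (adjusted p = 8.97e-05, SE 0.074) with p65 and 0.43 (adjusted p = 9.18e-05, SE 0.076) with VP64. PARP9, which forms a ubiquitin ligase complex with DTX3L, had 23.2, 24.1 and 21.3 CPM in the p65 guide libraries, 26.3, 26 and 24.6 in the VP64 guide libraries, 18.4, 18.4 and 17.2 with p65 and no guides, 17.6, 18.6 and 16.8 with VP64 and no guides, and 16.7, 15.8 and 14.6 without an activation domain. PARP9 rose by a log2 fold change of 0.35 (adjusted p = 0.000619, SE 0.073) with p65 and 0.53 (adjusted p = 4.04e-06, SE 0.073) with VP64. DTX3L, the catalytic subunit of that complex, had 37.1, 38.1 and 36.1 CPM in the p65 guide libraries, 36, 39.4 and 40.6 in the VP64 guide libraries, 34.4, 30.5 and 33.3 with p65 and no guides, 33.5, 33.3 and 33.1 with VP64 and no guides, and 31.4, 28.2 and 27.8 without an activation domain. DTX3L rose by a log2 fold change of 0.18 (adjusted p = 0.0243, SE 0.062) with p65 and 0.22 (adjusted p = 0.00774, SE 0.062) with VP64, and the p65 call was lost without p65 guide library A or B or p65 no-guide library B (adjusted p 0.0585 to 0.111). PARP9 and DTX3L overlap on opposite strands, and no source used here says whether counting used strand, so their values are uncertain against each other. The same holds for IFIT2, which overlaps LIPA, for EIF2AK2, which overlaps GPATCH11, and for IRF1, which overlaps C5orf56.

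**Figure D3:**
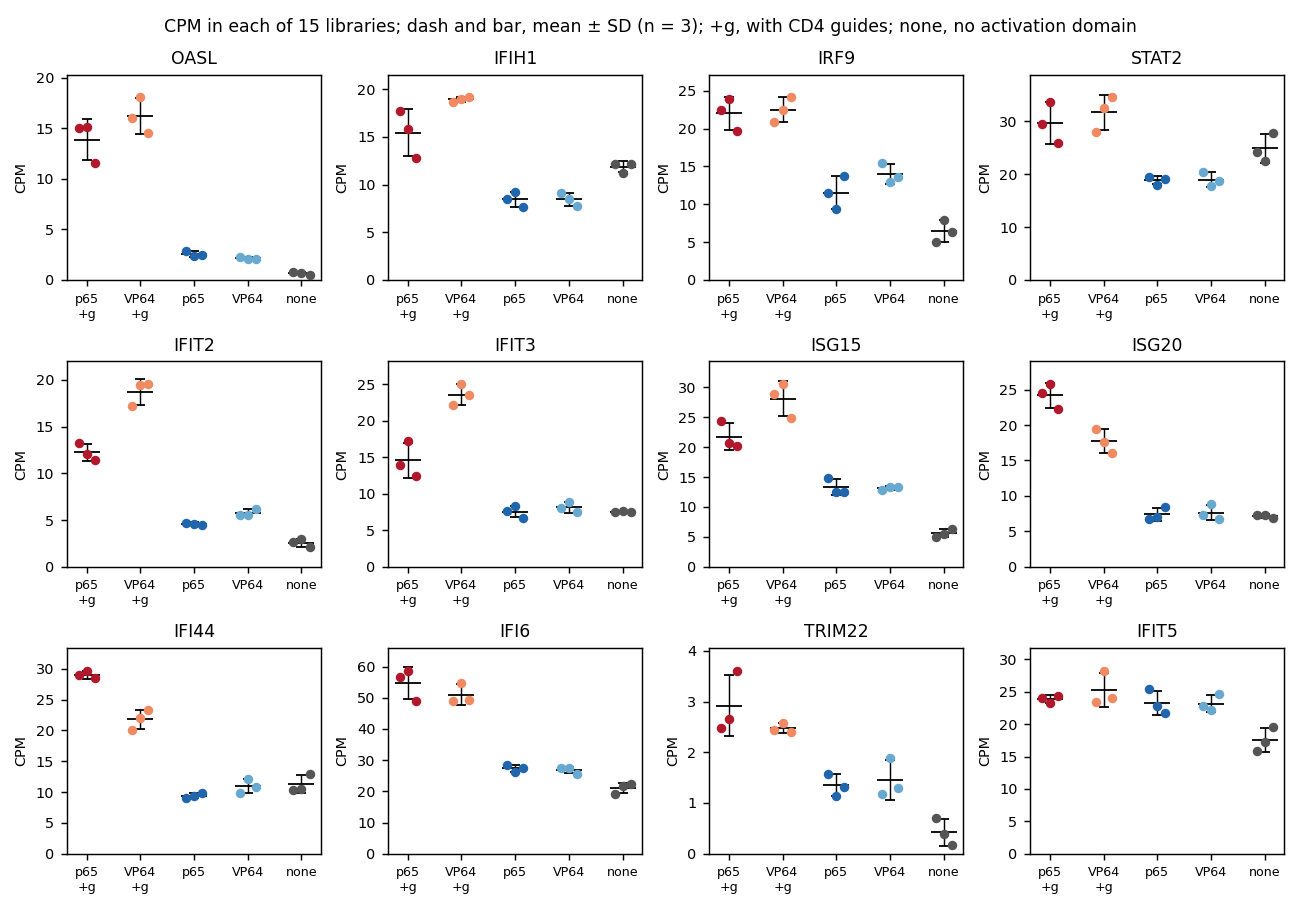
CPM of 12 members in each of the 15 libraries (points), with the mean and SD over 3 libraries per line; all axes start at 0. Guide libraries lie above their counterparts without guides for each gene but IFIT5, and OASL, IRF9, ISG15 and TRIM22 are lowest without an activation domain.

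Several members are neighbours in the genome (GENCODE release 29, GRCh38), and neighbours did not always move together. IFIT2, IFIT3, IFIT1 and IFIT5 lie in that order between positions 89283694 and 89421001 on chromosome 10, and the first 3 rose with guides in both pairs while IFIT5 did not pass the threshold in either. OAS1, OAS3 and OAS2 lie in that order between 112906777 and 113011723 on chromosome 12. The outer genes OAS1 and OAS2 rose in both pairs, whereas OAS3 between them fell with p65 and had -0.01 with VP64. SAMD9 and SAMD9L, adjacent on chromosome 7, rose in both pairs, as did PARP9, DTX3L and PARP14 on chromosome 3. IFI44L and IFI44 are adjacent on chromosome 1, and of these IFI44 passed the threshold.

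The second question was whether p65 and VP64 differed. With guides, 3 of 39 members were higher and 3 lower in the p65 line than in the VP64 line, against 3.72% of all tested genes higher and 4.2% lower (7.92% in either direction). The p65 guide line was higher for ISG20, with a log2 fold change of 0.45 (adjusted p = 0.00536, SE 0.098), and for IFI44, with 0.41 (adjusted p = 0.00376, SE 0.087). EIF2AK2 was also higher, by a log2 fold change of 0.17 (adjusted p = 0.024, SE 0.047), with 114, 112 and 115 CPM in the p65 guide libraries and 94.7, 102 and 105 CPM in the VP64 guide libraries. The p65 guide line was lower for IFIT3, with a log2 fold change of -0.70 (adjusted p = 0.00012, SE 0.10), for IFIT2, with -0.61 (adjusted p = 0.000479, SE 0.10), and for ISG15, with -0.37 (adjusted p = 0.0157, SE 0.094). The EIF2AK2 call was lost without VP64 guide library A or B or p65 guide library A or C, and with only the compared libraries in the fit (adjusted p 0.0577 to 0.134). The ISG15 call was lost without VP64 guide library B or p65 guide library B or C (adjusted p 0.0664 to 0.118). IFIH1, with a log2 fold change of -0.30 (adjusted p = 0.0821, SE 0.10), passed as lower without p65 guide library A (adjusted p 0.0231). DDX60, with -0.38 (adjusted p = 0.0835, SE 0.13), passed as lower without VP64 guide library A (adjusted p 0.031) and with no filter on low counts (adjusted p 0.0262).

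Without guides, no member passed the threshold between the p65 and VP64 lines in the edgeR test, against 0.388% of all tested genes higher and 1.72% lower (2.11% in either direction). At an unadjusted p below 0.05 in edgeR there were 5 of 39 members, against 2127 of 14961 tested genes. The DESeq2 test also called 0 members. The smallest adjusted p was that of OAS3, with a log2 fold change of 0.17 (adjusted p = 0.0857, SE 0.049), and the largest change in size was that of IFI44L, with -0.78 (adjusted p = 0.483, SE 0.46). These values do not show that the lines were alike. In the difference of guide effects, p65 minus VP64, 1 member passed the threshold, with a larger effect in the p65 pair, against 0.769% of all tested genes in that direction, 0.187% in the other and 0.956% in either. That member was IFI44, with a difference of 0.63 (adjusted p = 0.0196, SE 0.13) on the log2 scale. The IFI44 call was lost without VP64 no-guide library B or C or p65 no-guide library A or B (log2 difference 0.55 to 0.64, adjusted p 0.0501 to 0.0915). IFIT3 had a difference of -0.59 (adjusted p = 0.0869, SE 0.16) and passed the threshold with no filter on low counts (adjusted p 0.0286), with the replicate letter as a block (adjusted p 0.046) and without p65 guide library B (adjusted p 0.0186).

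The third question was what an activation domain did in the absence of guides. With p65, 17 of 39 members were higher and 5 lower than in the line without an activation domain, against 24.7% of all tested genes higher and 24.9% lower (49.7% in either direction). With VP64, 17 were higher and 4 lower, against 23.6% of all tested genes higher and 24.0% lower (47.6% in either direction). The members' median log2 fold change was 0.17 with p65 and 0.18 with VP64. Both comparisons use the same 3 libraries without an activation domain, so they are not independent. The members' share that was higher was above that of all genes, and the share that was lower was below it.

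In the sensors, OASL was higher by a log2 fold change of 1.95 (adjusted p = 2.28e-07, SE 0.22) with p65 and 1.69 (adjusted p = 3.31e-06, SE 0.23) with VP64. OAS2 was higher by a log2 fold change of 1.15 (adjusted p = 6.31e-05, SE 0.20) with p65 and 0.91 (adjusted p = 0.00101, SE 0.21) with VP64. IFIH1 was lower, with a log2 fold change of -0.50 (adjusted p = 0.000753, SE 0.11) with p65 and -0.49 (adjusted p = 0.00101, SE 0.11) with VP64. OAS3 had a log2 fold change of -0.04 (adjusted p = 0.539, SE 0.049) with p65 and was lower, with a log2 fold change of -0.21 (adjusted p = 0.00138, SE 0.049) with VP64. Mean TPM of OAS3 did not show that fall, with 19.96 with VP64 and 19.02 without an activation domain (log2 ratio 0.07). Among the transcription factors the members split. IRF9 was higher by a log2 fold change of 0.84 (adjusted p = 5.21e-05, SE 0.15) with p65 and 1.12 (adjusted p = 1.28e-06, SE 0.14) with VP64. IRF7 was higher by a log2 fold change of 0.42 (adjusted p = 0.00154, SE 0.10) with p65 and 0.41 (adjusted p = 0.00225, SE 0.10) with VP64. STAT2 was lower, with a log2 fold change of -0.40 (adjusted p = 0.00157, SE 0.098) with p65 and -0.39 (adjusted p = 0.00214, SE 0.098) with VP64. In TPM its libraries with p65 overlapped those without an activation domain, with means of 14.03 and 14.78 (log2 ratio -0.08). IRF1 was lower, with a log2 fold change of -0.46 (adjusted p = 0.000414, SE 0.096) with p65 and -0.49 (adjusted p = 0.000256, SE 0.097) with VP64. In the fit on counts, IFIH1, STAT2 and IRF1 were thus lower in both lines without guides than without an activation domain. They were higher with guides than without them in both pairs. The libraries with an activation domain and no guides enter both kinds of comparison with opposite sign. A low value in them would give both parts of this pattern, so the parts are not independent.

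Among effectors, TRIM22 was higher by a log2 fold change of 1.71 (adjusted p = 0.000508, SE 0.37) with p65 and 1.82 (adjusted p = 0.000287, SE 0.37) with VP64. ISG15 was higher by a log2 fold change of 1.23 (adjusted p = 1.44e-08, SE 0.12) with p65 and 1.22 (adjusted p = 1.99e-08, SE 0.12) with VP64. IFIT2 was higher by a log2 fold change of 0.85 (adjusted p = 3.5e-05, SE 0.14) with p65 and 1.18 (adjusted p = 4.19e-07, SE 0.14) with VP64. SAMD9 and HERC6 were higher with both domains. SAMD9 was higher by a log2 fold change of 0.62 (SE 0.077) with p65 and 0.77 (SE 0.076) with VP64. HERC6 was higher by a log2 fold change of 0.59 (SE 0.093) with p65 and 0.71 (SE 0.093) with VP64. IFIT5, whose guide effects did not pass the threshold, was higher by a log2 fold change of 0.40 (SE 0.086) with p65 and 0.40 (SE 0.087) with VP64. IFI6, USP18, PARP14, DTX3L and EIF2AK2 were also higher with both domains, by log2 fold changes of 0.17 to 0.41 with p65 and 0.13 to 0.34 with VP64. PLSCR1 was lower with p65, with a log2 fold change of -0.35 (adjusted p = 0.000936, SE 0.081). IFI44 was also lower with p65, with a log2 fold change of -0.27 (adjusted p = 0.0341, SE 0.10), a call that was lost without library C of the line without an activation domain (-0.14, adjusted p = 0.301), without p65 no-guide library A or B, and under 3 settings that kept the libraries compared (adjusted p 0.0566 to 0.0665).

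Some calls of these comparisons changed on leaving out single libraries or with another setting. With p65, DDX60 (0.43), PARP9 (0.20) and DTX3L were each lost on leaving out any of several libraries, among them p65 no-guide library A (adjusted p 0.0804 to 0.124). PARP9 was also lost with no filter on low counts and under DESeq2 (adjusted p 0.0677 and 0.0679). With VP64, SAMD9L was higher by a log2 fold change of 0.73 (adjusted p = 0.0302, SE 0.27), and the value was 0.47 (adjusted p = 0.203) without VP64 no-guide library B. It was also lost without VP64 no-guide library C, without library A or C of the line without an activation domain, and with only the compared libraries (adjusted p 0.0553 to 0.0947). SP100, with 0.13 (adjusted p = 0.0371, SE 0.050), was lost without VP64 no-guide library A or C or library B of the line without an activation domain (adjusted p 0.0862 to 0.173). PARP14 was lost without VP64 no-guide library C or library A of the line without an activation domain, EIF2AK2 without library B of either line, and DTX3L without library C of the line without an activation domain. USP18 was lost without VP64 no-guide library A or any library without an activation domain (adjusted p 0.0584 to 0.198), and also with no filter on low counts and under DESeq2 (adjusted p 0.0523 and 0.0637). Other members passed only on leaving out a library or changing a setting. With p65 these were HERC5 as lower without p65 no-guide library A, IFI35 as higher and IFI44L as lower without library B, and SAMD9L as higher without library C (adjusted p 0.0194 to 0.0472). With VP64, DDX60 and IFIT1 passed as higher without VP64 no-guide library B and PARP9 without library C (adjusted p 0.0227 to 0.0491). Without library A, B or C of the line without an activation domain, IFIT1 and PARP9 (A) and IFI35 (C) passed as higher and PLSCR1 (B) as lower with VP64 (adjusted p 0.0214 to 0.0415). With all libraries kept, IFIT1 and PARP9 also passed as higher with VP64 under the replicate block (adjusted p 0.0482 and 0.0425), and with only the compared libraries IFI35 passed as higher and PLSCR1 as lower (adjusted p 0.0451 and 0.0391). BST2, with -0.51 (SE 0.26) with p65 and -0.60 (SE 0.26) with VP64, passed as lower when only the compared libraries were fitted (adjusted p 0.0247 and 0.0181), and with VP64 also with no filter on low counts (adjusted p 0.0252).

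The genes upstream of the members give their setting. Of 21 interferon genes, 19 had 0 counts in all 15 libraries, where 3 counts, the approximate upper limit at 95% confidence for a count of 0, correspond to 0.13 to 0.192 CPM per library. IFNE had 5 counts over all libraries. IFNL1, a type III interferon, had 6, 12 and 11 counts in the p65 guide libraries, 2, 5 and 1 in the VP64 guide libraries, 0, 0 and 1 with p65 and no guides, and 0 in every library with VP64 and no guides or without an activation domain. Its count with guides was 29 against 1 in the p65 pair, a depth-scaled ratio of 32.3 with an exact 95% interval of 5.35 to 1320. In the VP64 pair it was 8 against 0. With 3 counts put in place of that 0, the depth-scaled ratio was 3.04. This ratio takes the 8 counts as exact, so it is not a lower limit, and no interval is given for this pair. The interval of the p65 pair covers counting error only. IFNL1 did not pass the filter on low counts, and without the filter its adjusted p was 0.000667 with p65 and 0.0238 with VP64. The receptor chain IFNLR1, which pairs with IL10RB to bind it, had 37 counts over all libraries.

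Of 9 receptor and kinase genes, 8 were tested, of which 5 rose with guides in the p65 pair and 6 in the VP64 pair, against 18.7% and 19.3% of all tested genes. IFNGR2, the signalling chain of the interferon gamma receptor, had 119.7, 114 and 104 CPM in the p65 guide libraries and 122, 122 and 116 in the VP64 guide libraries. It had 60.4, 56.5 and 53.2 CPM with p65 and no guides, 61.8, 62.5 and 59.3 with VP64 and no guides and 66.3, 62.4 and 69.2 without an activation domain. IFNGR2 rose by a log2 fold change of 0.99 (adjusted p = 8.31e-12, SE 0.055) with p65 and 0.97 (adjusted p = 1.41e-11, SE 0.055) with VP64. IL10RB rose by a log2 fold change of 0.39 (SE 0.074) with p65 and 0.48 (SE 0.075) with VP64. The kinase JAK1 rose by a log2 fold change of 0.24 (SE 0.041) with p65 and 0.21 (SE 0.041) with VP64. Against no activation domain, without guides, 3 of the 8 were higher and 2 lower with p65, and 2 were higher and 1 lower with VP64. Of all tested genes, 24.7% were higher and 24.9% lower with p65, and 23.6% higher and 24.0% lower with VP64. IFNGR1, the ligand-binding chain, was higher by a log2 fold change of 0.43 (SE 0.059) with p65 and 0.34 (SE 0.060) with VP64, and TYK2 was lower, with a log2 fold change of -0.37 (SE 0.061) with p65 and -0.41 (SE 0.062) with VP64.

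In the pathway that induces interferon, 7 of 13 tested genes rose and 2 fell with p65, and 6 rose and 2 fell with VP64, against 18.7% of all tested genes higher and 20.2% lower with p65 and 19.3% higher and 21.3% lower with VP64. The DNA-sensing adaptor STING (TMEM173) rose by a log2 fold change of 0.91 (adjusted p = 3.43e-09, SE 0.075) with p65 and 0.86 (adjusted p = 9.15e-09, SE 0.076) with VP64. The RNA sensor homologue DHX58 rose by a log2 fold change of 0.96 (SE 0.18) with p65 and 1.21 (SE 0.19) with VP64. The adaptor TICAM1 rose by a log2 fold change of 0.48 (SE 0.061) with p65 and 0.33 (SE 0.062) with VP64. IRF3, which is activated without new synthesis, rose by a log2 fold change of 0.31 (adjusted p = 7.15e-05, SE 0.054) with p65 and had a log2 fold change of 0.13 (adjusted p = 0.0716, SE 0.054) with VP64. The DNA sensor IFI16 rose by a log2 fold change of 0.14 (SE 0.042) with p65 and 0.25 (SE 0.042) with VP64. Without guides, against no activation domain, 5 of 13 were higher and 2 lower with p65 and 6 higher and 2 lower with VP64, where 49.7% of all tested genes were called with p65 and 47.6% with VP64. TMEM173 was higher by a log2 fold change of 0.61 (SE 0.083) with p65 and 0.58 (SE 0.083) with VP64. The RNA sensor TLR3 was higher by a log2 fold change of 0.99 (SE 0.16) with p65 and 0.83 (SE 0.16) with VP64, and IFI16 was lower, with a log2 fold change of -0.39 (SE 0.042) with p65 and -0.34 (SE 0.042) with VP64.

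Of 9 feedback regulators, 2 rose and 3 fell with guides in the p65 pair, and 2 rose and 4 fell in the VP64 pair. The counts that rose were near the shares of all tested genes (18.7% with p65 and 19.3% with VP64), and those that fell stood against 20.2% with p65 and 21.3% with VP64. SOCS3, an inhibitor of cytokine receptor signalling, fell, with a log2 fold change of -0.77 (adjusted p = 3.54e-11, SE 0.047) with p65 and -0.88 (adjusted p = 6.97e-12, SE 0.048) with VP64. The phosphatase gene PTPN11 fell, with a log2 fold change of -0.40 (SE 0.042) with p65 and -0.40 (SE 0.042) with VP64. PTPN1 fell, with a log2 fold change of -0.10 (SE 0.041) with p65 and -0.25 (SE 0.041) with VP64. TRIM21, a ubiquitin ligase, rose by a log2 fold change of 0.31 (SE 0.079) with p65 and 0.24 (SE 0.080) with VP64. Without guides, against no activation domain, 3 of the 9 were higher and 2 lower with each domain, against 24.7% and 23.6% of all tested genes higher and 24.9% and 24.0% lower. SOCS3 was then higher by a log2 fold change of 0.22 (SE 0.046) with p65 and 0.32 (SE 0.046) with VP64. PTPN11 was higher by a log2 fold change of 0.26 (SE 0.041) with p65 and 0.20 (SE 0.041) with VP64. PTPN1 was higher by a log2 fold change of 0.23 (SE 0.041) with p65 and 0.25 (SE 0.041) with VP64.

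Of 9 further STAT and IRF genes, 6 were tested, of which 1 rose with p65 and 1 with VP64, near the share of all tested genes. STAT6 rose by a log2 fold change of 0.55 (SE 0.053) with p65 and 0.53 (SE 0.053) with VP64. Without guides, against no activation domain, IRF5 was higher by a log2 fold change of 0.27 (SE 0.088) with p65, and STAT5A was lower, with a log2 fold change of -1.54 (SE 0.34) with p65 and -1.12 (SE 0.33) with VP64. Of 38 other interferon-stimulated genes, 31 were tested, of which 12 rose and 4 fell with p65 and 15 rose and 4 fell with VP64, against 18.7% and 19.3% of all tested genes higher and 20.2% and 21.3% lower. PARP10 rose by a log2 fold change of 1.02 (SE 0.066) with p65 and 1.04 (SE 0.066) with VP64. LGALS3BP rose by a log2 fold change of 0.62 (SE 0.038) with p65 and 0.60 (SE 0.038) with VP64. TRIM38 rose by a log2 fold change of 0.79 (SE 0.051) with p65 and 0.58 (SE 0.052) with VP64. Without guides, against no activation domain, 12 of these 31 were higher and 3 lower with p65, and 9 higher and 3 lower with VP64, against 24.7% and 23.6% of all tested genes higher and 24.9% and 24.0% lower. ZNFX1 was higher by a log2 fold change of 0.87 (SE 0.053) with p65 and 0.91 (SE 0.053) with VP64. IFITM3 was higher by a log2 fold change of 0.48 (SE 0.048) with p65 and 0.51 (SE 0.048) with VP64. Between p65 and VP64 with guides, 3 of these 31 were higher and 1 lower, against 3.72% and 4.2% of all tested genes, among them TRIM38 (0.29), RNF213 (0.32) and HELZ2 (0.20).

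**Figure D4:**
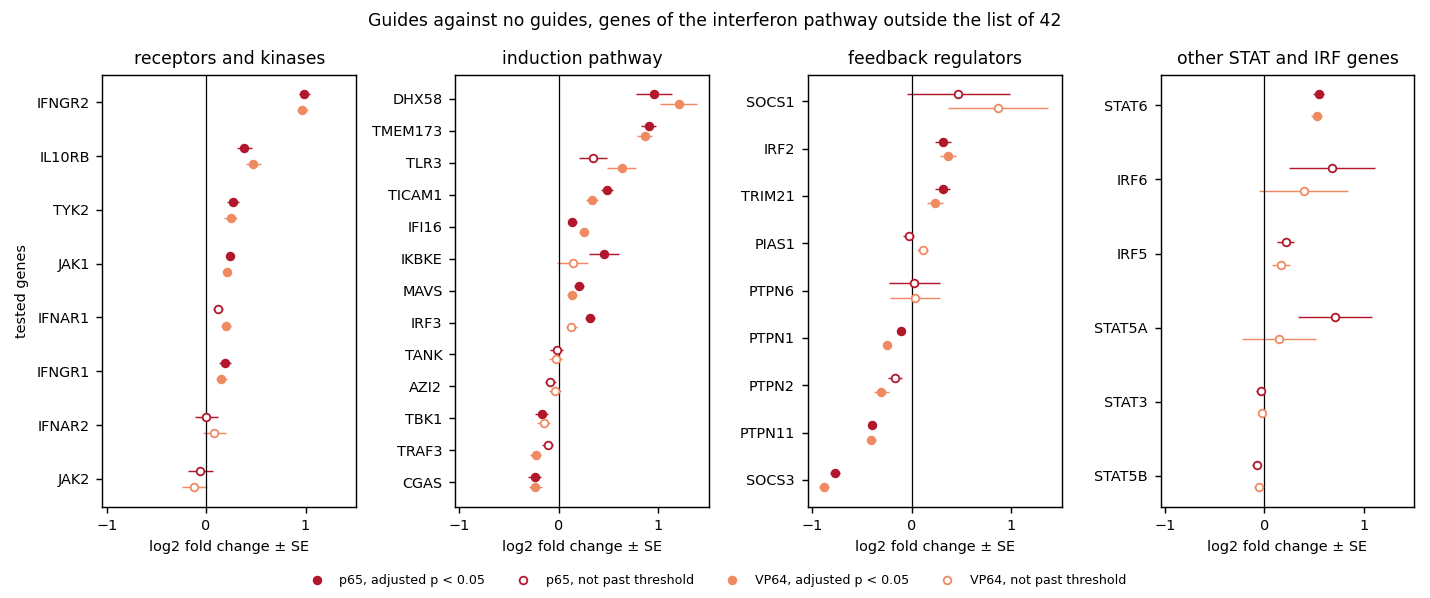
Log2 fold changes with SE for guides against no guides in tested genes of the interferon pathway that are not among the 42 members; filled points have an adjusted p below 0.05. IFNGR2, DHX58, TMEM173 and STAT6 lay right of 0 and SOCS3 left of 0 with both nanobodies.

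Other features of the lines moved with these results. IL7R, an immune marker that this line expresses, had log2 fold changes with guides of -0.68 (SE 0.061) with p65 and -0.79 (SE 0.061) with VP64, opposite to most members. For comparison with the marker counts that follow, 18.7% of all tested genes rose and 20.2% fell with p65. With VP64, 19.3% rose and 21.3% fell. Of the 8 tested immune markers, 1 rose and 1 fell with p65, and 2 rose and 1 fell with VP64. Of 8 tested epithelial, endothelial and fibroblast markers, 1 rose in each pair. Of 9 tested melanocytic markers, 5 rose and 1 fell with p65, and 7 rose with VP64, among them SOX10, with log2 fold changes of 0.45 (SE 0.058) with p65 and 0.54 (SE 0.058) with VP64. Their part in the members' changes was not tested.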

How the data were processed

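RNA-seq tables of 15 libraries from 5 lines were analysed, 3 per line. The deposited expected counts are, per the labels and the file headers, RSEM estimates of reads per gene after STAR alignment to hg38. TPM values, deposited by the authors in the same tables, are RSEM's per-length abundances per the file headers. The sources used here state neither versions, settings nor strandedness. Expected counts were rounded and modelled with the quasi-likelihood test of edgeR 4.0.16 (R 4.3.3), with a term for each line, all 15 libraries in 1 fit, TMM factors of 0.983 to 1.014, and filterByExpr with a minimum count of 10, which kept 14961 genes. Benjamini-Hochberg adjustment ran over these genes within each of 7 comparisons, with a threshold of 0.05. The common biological coefficient of variation was 5.45%. The fit was tested on simulated counts.

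CPM are rounded counts per 1e6 of the TMM-scaled library size. The 92 spike-in entries, with 0 to 7 counts per library, were left out. Totals of 15643705 to 23072512 counts leave genes of a few counts with wide intervals. Alternatives were DESeq2 size factors, no low-count filter, a minimum mean of 1 CPM, the replicate letter as a block, a fit of only the compared libraries, the DESeq2 1.42.0 Wald test, and leaving out each library.

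The members and lists were chosen with earlier results of these data known. Every member is named. Values per library are given for up to 3 members per role with the smallest p in either guide comparison and for the largest changes in the other comparisons. From the further pathway lists the genes with the smallest p are named, up to 3 per comparison, and 1 gene of these lists is not reported here. IRF9 and TRIM25 share exons on the same strand with AL136295.5 and C17orf67, and RSAD2 and CMPK2 overlap each other.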

Additional observations from a re-analysis of the deposited data

Results flagged for a closer look

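The guide effect on IFI44 differed between the nanobodies by a tested difference, 0.63 on the log2 scale (p65 minus VP64, adjusted p = 0.0196 in edgeR). All 3 p65 guide libraries lay above the VP64 guide libraries, and the libraries without guides overlapped between p65 and VP64 by a narrow margin (highest 9.90 CPM with p65, lowest 9.88 CPM with VP64). Without guides the p65 line was -0.22 on the log2 scale against the VP64 line (adjusted p = 0.339, unadjusted p = 0.0451), and with guides it was 0.41, and both enter the difference of 0.63. The call was lost on leaving out any of 4 libraries without guides, as given above.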

How the results depend on the processing

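Of the calls on members, 24 of 26 were kept under all alternatives with p65 guides, 23 of 28 with VP64 guides, 4 of 6 for p65 against VP64 with guides, 18 of 22 for p65 and 15 of 21 for VP64 against no activation domain, and 0 of 1 for the difference of guide effects. The share of calls kept was not counted over all genes. No result on a member reversed its direction with a call under these alternatives. The number of members that fell with VP64 guides was 0 to 1 on leaving out single libraries. For the difference of guide effects, members with a larger effect with p65 numbered 0 to 1 and those with a smaller one 0 to 1 on leaving out single libraries, and 1 member had a smaller effect with no low-count filter and with the replicate block. Over all genes, p65 against VP64 with guides called 310 higher and 396 lower with only the compared libraries, and 300 to 528 higher and 381 to 617 lower on leaving out libraries. Without guides it called 136 higher and 409 lower with no filter, and 19 to 54 higher and 157 to 247 lower on leaving out libraries. The difference of guide effects called 238 higher and 122 lower with no filter, 197 higher and 45 lower under DESeq2, 17 lower with only the compared libraries, and 9 to 54 lower on leaving out libraries. The causes were not tested, beyond the smaller number of libraries in some of these fits. Libraries with the same replicate letter did not deviate together across lines. Deviations from the line means had a median correlation of -0.0362 over 30 pairs with the same letter (-0.32 to 0.192) and of 0.0332 over 60 pairs with different letters. Such deviations sum to 0 within a line, so values for the same letter and for different letters tend to opposite signs. The labels do not say whether a letter marks a shared culture, day or batch. With the replicate block, 25 members rose and 1 fell with p65 guides, and 26 rose and 1 fell with VP64 guides. Over all tested genes that fit called 2735 higher and 2932 lower with p65 guides. With VP64 guides it called 2816 higher and 3101 lower. Depth limits IFI27, IFI44L, XAF1, MX2, RSAD2, CMPK2 and the interferon genes.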

Other observations

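Fold changes from TPM and from counts differed by more than 0.5 on the log2 scale for 4 members. For UBA7 with VP64 guides the count fit gave 0.50, whereas mean TPM was 1.02 with guides and 1.77 without, a log2 ratio of -0.79. Without guides, VP64 against no activation domain, UBA7 had -0.18 from counts and 0.85 from TPM. SAMD9L with VP64 guides had 1.70 from counts and 0.98 from TPM. TRIM22 had 0.77 from counts and 0.22 from TPM with VP64 guides, and 1.82 from counts and 2.62 from TPM for VP64 against no activation domain. XAF1 with p65 guides had -0.71 from counts and 0.71 from TPM. Smaller differences also touched called changes. Against no activation domain, OAS3 with VP64 had -0.21 from counts and 0.07 from TPM, and STAT2 with p65 had -0.40 and -0.08. TPM divides by an effective length that RSEM estimates for each library from isoform abundances, and its part in these differences was not tested.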
